A study of Mus musculus with 6 samples.

Results

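The nuclear genes of oxidative phosphorylation were taken as the loci of the deposited expression table whose symbol names a subunit of complex I (Ndufa, Ndufb, Ndufc, Ndufs and Ndufv genes), complex II (Sdh), complex III (Uqcr and Cyc1), complex IV (Cox4 to Cox8) or the ATP synthase (Atp5). They were chosen by name and by no measured value. The rule found 84 of 23793 loci: 35 of complex I, 4 of complex II, 9 of complex III, 19 of complex IV and 17 of the ATP synthase. Ndufa4, long named as a complex I gene, was counted with complex IV, to which its protein is now assigned. Cox7a2l, Atp5s and Atp5sl carry names of the family, but their proteins are factors rather than core subunits. None of the 84 shared its locus with another symbol in the table.

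RNA was measured in whole cerebellum of mice at postnatal day 0. The 3 control libraries were Zeb2 f/+; hGFAP-cre, with 1 floxed Zeb2 allele, and the 3 cKO libraries were Zeb2 f/f; hGFAP-cre, with both alleles floxed. Both groups carried the Cre transgene, which a human GFAP promoter drives in neural progenitors and glia of the developing brain, so the controls also had a floxed allele open to deletion and cells outside that lineage were not targeted. Zeb2 is a zinc-finger transcription factor that binds E-box sequences. Values were read as FPKM, a level scaled for transcript length and library size. The labels do not say whether a library came from 1 animal or several, so the spread behind each p-value may be technical.

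Oxidative phosphorylation takes place in the inner mitochondrial membrane. Complexes I and II pass electrons from NADH and succinate to ubiquinone, complex III passes them to cytochrome c, and complex IV passes them to oxygen. Complexes I, III and IV pump protons, and the ATP synthase uses the proton gradient to make ATP. Most subunits are encoded in the nucleus and a few of the central ones in mitochondrial DNA. Several complex IV subunits have isoforms from separate genes, with 1 form in most tissues and another in lung, muscle or testis. In the postnatal cerebellum, granule neuron progenitors divide while depending strongly on glycolysis, and mature neurons rely more on respiration.

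The targeted gene, Zeb2, gave 11.4, 9.52 and 7.995 FPKM in the controls and 6.19, 3.89 and 5.81 in the cKO libraries. The groups did not overlap, with a log2 difference of -0.77 (SE 0.18, limma adjusted p = 0.107), and the exact two-sided permutation p was 0.1, the smallest that 3 against 3 can give. Xist averaged 0.394 FPKM in controls and 144.0 in cKO libraries, and the Y-linked Ddx3y 16.3 and 0.0178. Each difference reported here is therefore also a difference between the sexes, and the parts of genotype and sex cannot be told apart. The spacing of values under 0.1 FPKM was shared within 2 sets of libraries (24.16% to 32.86% of ratios in 1 narrow window, against 7.35% to 8.90% between the sets): set 1 held control 1 and cKO 3, and set 2 held controls 2 and 3 and cKO 1 and 2. Absolute read depth is unknown, because the files give no counts. If the spacing follows depth, cKO 1 had 0.797 and 0.784 of the depth of controls 2 and 3. By the same reading cKO 2 had 0.909 and 0.894 of it, and cKO 3 had 0.924 of the depth of control 1.

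Promoters of isoform genes with a p under 0.05 before adjustment below, and of their partners, are shown first: the COX6B pair of complex IV and the 3 genes that encode the same subunit c of the ATP synthase. Each is the 150 bases before the RefSeq start (GRCm38.p6), on the gene's own strand, 5′ to 3′. Capitals mark a match to the NRF1 core CGCATGCG (in Atp5g2) or to the ETS motif CCGGAAG, read on the opposite strand (in Cox6b1). None of the 5 motifs described next was matched in the other 3 sequences. Only these 150 bases were marked. The longer promoters of Atp5g2 and Cox6b1, counted next, also held the Zeb E-box CACCTG, outside the bases shown. Cox4i1 and Cox4i2 were not matched.
Cox6b1, chr7:30626115-30626264, minus strand: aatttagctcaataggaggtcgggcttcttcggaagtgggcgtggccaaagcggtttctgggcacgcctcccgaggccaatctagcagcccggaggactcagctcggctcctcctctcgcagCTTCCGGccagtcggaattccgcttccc
Cox6b2, chr7:4753095-4753244, minus strand: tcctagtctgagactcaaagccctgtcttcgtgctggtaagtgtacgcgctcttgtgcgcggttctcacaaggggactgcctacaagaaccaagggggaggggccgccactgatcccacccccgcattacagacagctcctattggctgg
Atp5g1, chr11:96075632-96075781, minus strand: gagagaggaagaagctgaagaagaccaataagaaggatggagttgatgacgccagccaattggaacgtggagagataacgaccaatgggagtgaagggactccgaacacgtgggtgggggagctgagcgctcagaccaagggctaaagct
Atp5g2, chr15:102671048-102671197, minus strand: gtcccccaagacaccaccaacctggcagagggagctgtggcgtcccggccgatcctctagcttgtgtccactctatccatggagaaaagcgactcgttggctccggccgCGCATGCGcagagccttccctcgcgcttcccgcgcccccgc
Atp5g3, chr2:73911327-73911476, minus strand: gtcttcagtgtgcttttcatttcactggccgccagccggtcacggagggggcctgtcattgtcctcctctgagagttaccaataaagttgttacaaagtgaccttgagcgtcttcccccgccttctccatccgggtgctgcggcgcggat
The Cox6b pair thus differs in these letters: the Cox6b1 window holds an ETS match and the Cox6b2 window holds none of the 5 motifs. The windows of Cox7a1 and Cox7a2, not shown, both held none of them.

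RefSeq promoters of 300 bases, 250 before and 50 after the start, matched 69 of the 84 genes, with 75 promoters. NRF1 is a transcription factor named for its role at respiratory chain genes, ETS factors include GABP (also called NRF2), and YY1 is a zinc-finger factor with many mitochondrial targets. On either strand, CGCATGCG was found in 12% of these promoters, against 1.87% of all 32851 in the table and 3.60% of those of the other tested loci. The YY1 motif GATGGCGG was found in 12%, against 1.70% of all and 3.31% of the other tested loci. CCGGAAG was found in 21.3%, against 8.86% and 16.4%. The E-box CACCTG, a sequence that Zeb factors bind, was found in 20.0% of these promoters, 20.2% of all and 17.98% of the other tested loci's. TATAAA was found in 10.7%, 13.6% and 6.90% of the same groups. A gene with more than 1 promoter could count more than once. The YY1 motif was in 9 promoters of 7 genes, CACCTG in 15 promoters of 14 genes and TATAAA in 8 promoters of 7 genes. Of the genes whose sequences are shown above, Atp5g2 and Cox6b1 were among those with CACCTG, and Cox6b2, Atp5g1 and Atp5g3 were not. These are letter matches and no binding was measured.

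The genes were among the most abundant of the tissue. At a level of at least 1 FPKM in at least 3 of 6 libraries, 80 of 84 were tested, all but Cox6a2, Cox7b2, Cox8b and Cox8c. Their median level was 130 FPKM, against 13.0 over all 13612 loci tested, and 72 of the 80 exceeded 50 FPKM. By complex the median level was 107 FPKM for complex I, 88.6 for complex II, 169 for complex III, 244 for complex IV and 294 for the ATP synthase. FPKM is a value per length, so these levels can be set beside each other, although short transcripts are the least certain in that scaling.

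Subunits of a complex were not at equal levels. In complex I the 7 catalytic core genes, which include the carriers of the flavin and the iron-sulfur clusters, had a median of 70.8 FPKM and were lowest in Ndufs1, at 44.3. The accessory genes ran from 17.3 (Ndufa11) to 231 (Ndufa3), a 13.3-fold range. Complex II was the most even: Sdha, the flavoprotein, was at 76.6, the iron-sulfur subunit Sdhb at 115, and the membrane anchors Sdhc and Sdhd at 95.4 and 81.8. In complex III the Rieske protein gene Uqcrfs1 had the lowest level, 95.6, and the hinge protein gene Uqcrh the highest, 321. In the ATP synthase the catalytic beta subunit, Atp5b, led with 604 FPKM, and the catalytic F1 gene with the lowest level was Atp5d, at 175. Atp5s, a factor rather than a core subunit, had the lowest level of all genes counted there, 7.06.

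**Figure D1:**
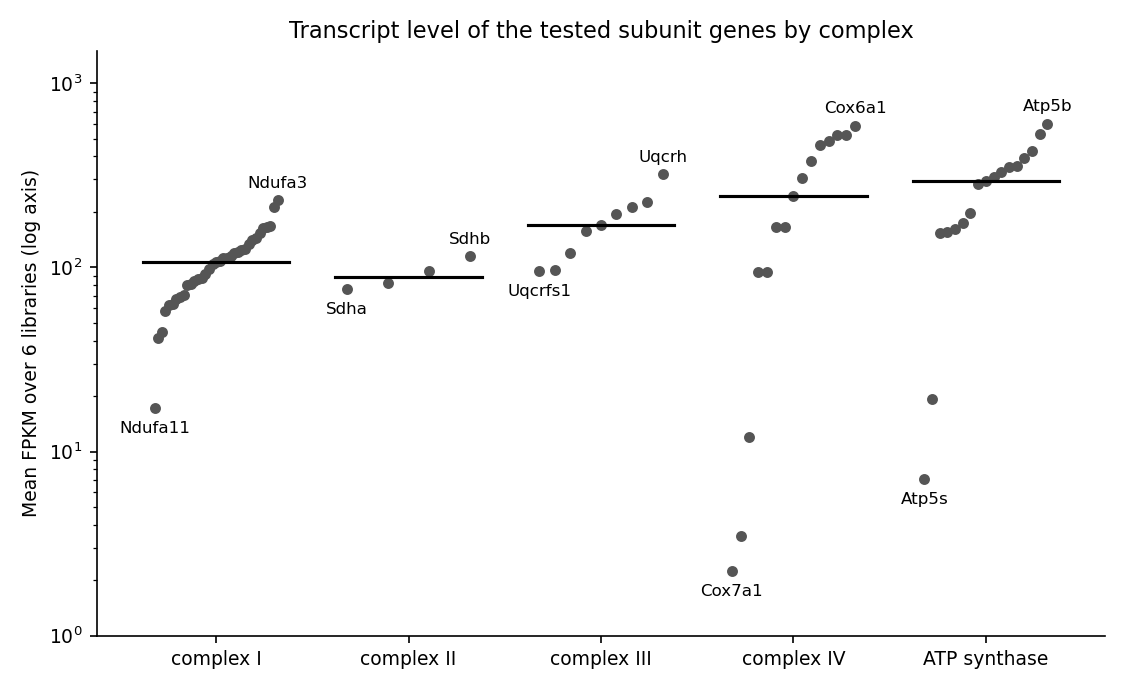
Mean FPKM over the 6 libraries (log axis) of each of the 80 tested genes, by complex; bars are medians, and the lowest and highest gene of each complex are named. The medians run from 88.6 in complex II to 294 in the ATP synthase, and the minor isoforms Cox4i2, Cox6b2 and Cox7a1 lie far below the rest of complex IV.

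Between the groups, none of the 80 genes passed limma's test at an adjusted p of 0.05, against 78 of 13612 loci, or 0.573%. At a limma p under 0.05 before adjustment there were 3 (3.75%), Cox4i2, Cox6b2 and Atp5g2, against 17.6% of all loci. The groups did not overlap in 6 (7.5%), against 23.9% of all loci: Cox4i2, Cox6b2 and Uqcr10 were higher in each cKO library than in any control, and 3 genes lower, among them Atp5g2 and Ndufb4. The log2 difference was positive for 40 genes and negative for 40, and its median was 0.00018, against -0.0095 over all loci.

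The comparison also limits how large a difference could be. The 95% interval of the log2 difference had a median half-width of 0.178, and it lay within ±0.5, a 1.41-fold change, for 76 of the 80 genes. It lay within ±0.25, a 1.19-fold change, for 52, and it included 0 for 77. Over all 13612 loci tested these 3 counts were 11888, 5292 and 11216, and the median half-width was 0.184. The 4 genes whose interval passed ±0.5 were Cox4i2, Cox6b2, Cox7a1 and Ndufb6. In whole cerebellum, fewer cells of a type and less RNA per cell cannot be told apart.

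**Figure D2:**
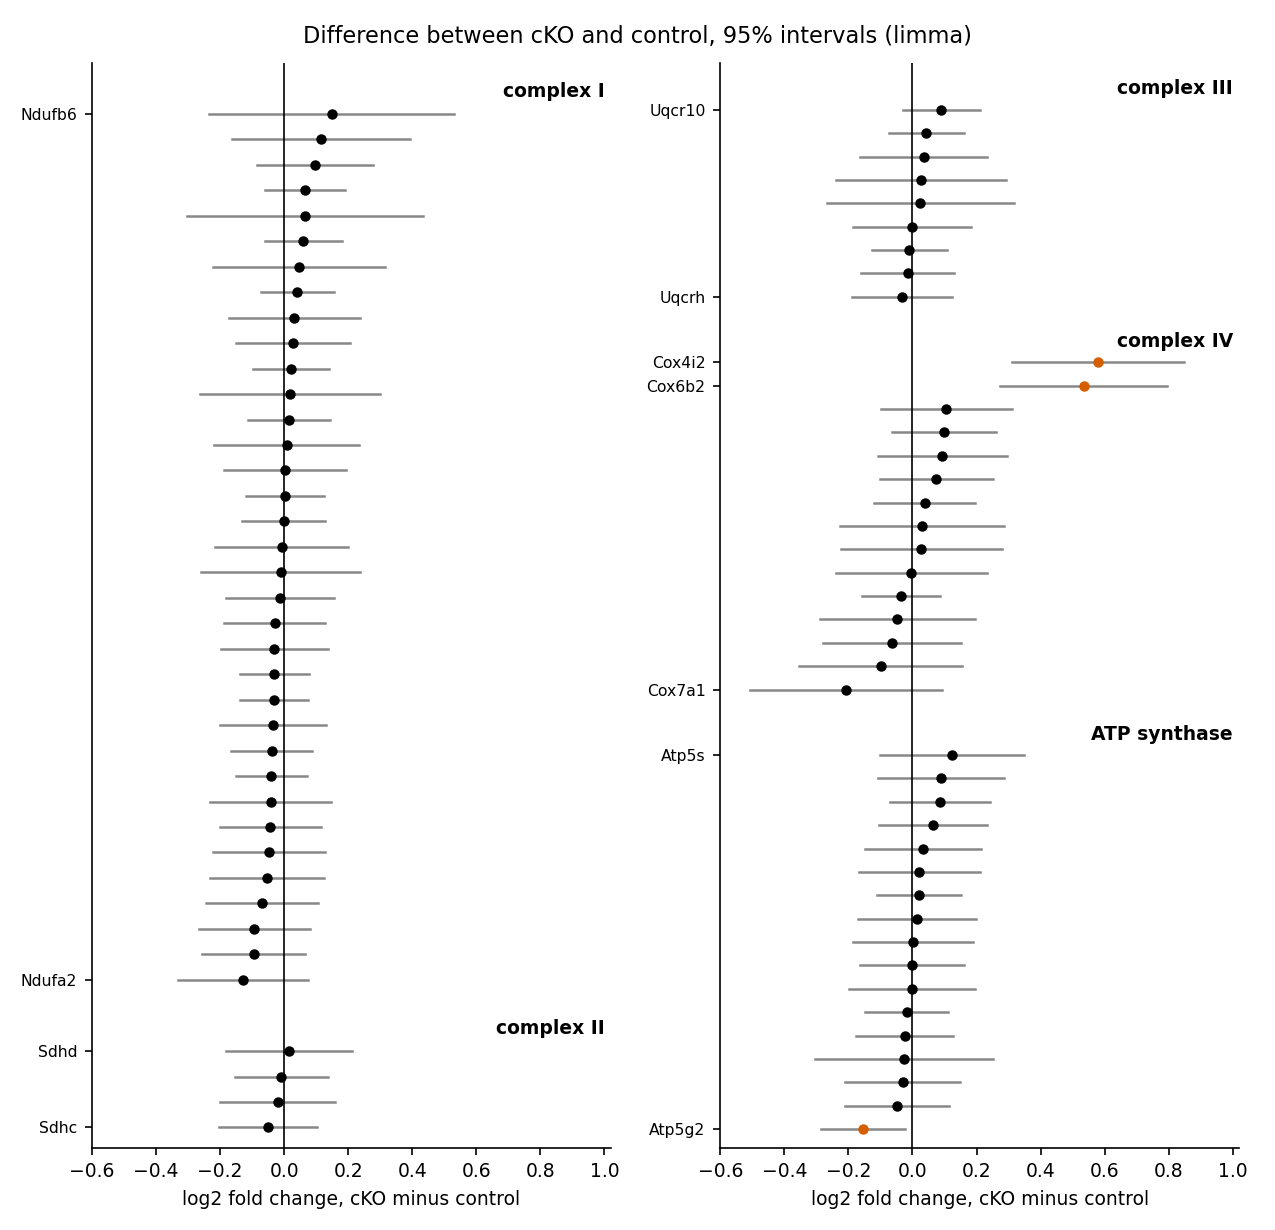
Log2 difference, cKO minus control on log2(FPKM + 1), with its 95% interval for each of the 80 tested genes, ordered within complexes; the lowest and highest gene of each complex and those with a p under 0.05 are named, and orange marks a limma p under 0.05 before adjustment. Of the 80 intervals 77 include 0, against 11216 of 13612 over all loci. The orange points are Cox4i2 and Cox6b2 above 0 and Atp5g2 below it.

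Complex I, the entry point for NADH electrons, had a median log2 difference of -0.0078, with 16 of 35 genes positive and 19 negative, and none had a p under 0.05. The core genes stayed between -0.05 (Ndufs3) and 0.01 (Ndufs1). Ndufv1, which binds NADH and the flavin, gave 67.2, 67.9 and 72.01 FPKM in controls and 66.0, 69.0 and 71.9 in cKO libraries, a log2 difference of -0.0016 (95% interval -0.13 to 0.13). Its values lie on top of each other.

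Among the accessory subunits, Ndufb4 gave 144.2, 144.4 and 147.4 FPKM in controls and 140.9, 143.0 and 142.8 in cKO libraries, a log2 difference of -0.03 (adjusted p = 0.772). Ndufa2 had the most negative difference of the complex, -0.13 (SE 0.09, adjusted p = 0.482), and Ndufb6 the most positive, 0.15 (SE 0.16, adjusted p = 0.680). Ndufb6 gave 113, 78.4 and 86.9 FPKM against 93.7, 92.4 and 122. Its 2 high values were control 1 and cKO 3, the libraries of set 1.

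Complex II, which is also an enzyme of the TCA cycle and is encoded wholly in the nucleus, had a median log2 difference of -0.014. Sdha gave 80.1, 76.4 and 73.9 FPKM in controls and 73.6, 73.9 and 81.8 in cKO libraries, a log2 difference of -0.0081 (95% interval -0.15 to 0.14). The log2 differences of Sdhb, Sdhc and Sdhd were -0.02, -0.05 and 0.02. The groups overlapped for all 4 genes.

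Complex III, the cytochrome bc1 complex, had a median log2 difference of 0.024, with 5 of 9 genes positive. Uqcr10, a small accessory subunit, gave 188.1, 189.2 and 188.7 FPKM in controls and 197, 198 and 208 in cKO libraries. The controls lay close together and below all cKO libraries, but the log2 difference was 0.09 (SE 0.05, adjusted p = 0.403). Cyc1, the cytochrome c1 gene, gave 189, 157 and 155 FPKM against 151, 162 and 199, high in control 1 and cKO 3, with a log2 difference of 0.02 (SE 0.12). Uqcrfs1 differed by -0.01 (SE 0.06).

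Complex IV, cytochrome c oxidase, held the 2 genes with the largest differences, and both are minor isoforms. Cox4i2 encodes the alternative form of subunit 4 known from lung and from responses to low oxygen, and lies at chr2:152754173-152765037 on the plus strand (mm10). It gave 2.21, 2.97 and 2.60 FPKM in controls and 4.45, 4.89 and 3.76 in cKO libraries, means of 2.59 ± 0.377 and 4.37 ± 0.573 (SD, n = 3 each). All cKO values lie above all control values. The log2 difference was 0.58 (SE 0.11, 95% interval 0.31 to 0.85), and limma's adjusted p was 0.0792. On log2(FPKM + 1) the difference of so low a gene is understated.

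Cox6b2 encodes the form of subunit 6B known from testis, and lies at chr7:4751792-4753094 on the minus strand (mm10). It gave 8.37, 9.27 and 11.4 FPKM in controls and 14.9, 14.9 and 13.3 in cKO libraries, means of 9.68 ± 1.56 and 14.4 ± 0.915 (SD, n = 3 each). Again no cKO value reached down to a control value. The log2 difference was 0.53 (SE 0.11, 95% interval 0.27 to 0.79; limma adjusted p = 0.0882).

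The call of these 2 genes depended on the fit. With the 234 small-RNA loci left out of the test, Cox4i2 had an adjusted p of 0.036 and Cox6b2 of 0.0363, and they were the 2 genes of the 80 called, against 2.46% of all loci. With limma's robust variance the adjusted p was 0.0315 and 0.0307, against 2.47% of all loci called. Over all alternatives the adjusted p ran from 0.0187 to 0.207 for Cox4i2 (23 alternatives) and from 0.0217 to 0.288 for Cox6b2 (24). The log2 difference stayed between 0.50 and 0.73 for Cox4i2 and between 0.44 and 0.70 for Cox6b2. Within set 2 alone it was 0.58 for Cox4i2 (adjusted p = 0.176) and 0.49 for Cox6b2 (adjusted p = 0.219).

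Their ubiquitous partners carried nearly all of the RNA. Cox4i1 gave 563, 496 and 511 FPKM in controls and 466, 530 and 574 in cKO libraries, a log2 difference of -0.0036 (SE 0.10). Cox4i2 made up 0.391%, 0.595% and 0.506% of the summed Cox4i FPKM in controls and 0.946%, 0.916% and 0.650% in cKO libraries. Cox6b1 gave 518, 519 and 517 FPKM against 507, 533 and 558, a log2 difference of 0.04 (SE 0.07). Cox6b2 made up 1.59%, 1.75% and 2.16% of the Cox6b sum in controls and 2.87%, 2.71% and 2.33% in cKO libraries. The shares did not overlap between the groups, while the values of Cox4i1 and of Cox6b1 did.

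In the Cox6a, Cox7b and Cox8 families the ubiquitous form made up over 99% of the summed FPKM in every library. In the Cox7a family the sum was shared evenly by Cox7a2 (49.4% in controls and 49.3% in cKO libraries) and Cox7a2l (49.8% and 50.1%). Cox7a2l was summed here by its name, although its protein is a factor rather than a core subunit. Cox7a1, the muscle form of subunit 7A, gave 1.92, 2.49 and 3.06 FPKM in controls and 1.82, 2.06 and 2.12 in cKO libraries, a log2 difference of -0.21 (SE 0.13, adjusted p = 0.447), with overlapping groups. Its partner Cox7a2 gave 174, 166 and 161 FPKM against 139, 168 and 181. Cox6a2, the muscle form of subunit 6A, lay between 0.148 and 0.631 FPKM, beside 565 and 607 on average for Cox6a1. Cox7b2 lay between 0 and 0.467 FPKM. Cox8b, known from muscle and brown fat, was at 0.423 FPKM in control 2 and listed at 0 in the other libraries, and Cox8c was listed at 0 in all 6.

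In the main fit no complex IV gene passed limma's test, and the remaining ones also had no p under 0.05 before adjustment. Ndufa4 gave 428, 503 and 478 FPKM in controls and 431, 488 and 428 in cKO libraries. Cox8a, the ubiquitous form of subunit 8, had a log2 difference of 0.10 (SE 0.07, adjusted p = 0.502), and Cox6a1 of 0.11 (SE 0.09, adjusted p = 0.570). The median of the complex was 0.030, with 9 of 15 genes positive.

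The ATP synthase had a median log2 difference of 0.0018, with 9 of 17 genes positive. The 5 genes of the catalytic F1 part lay between -0.02 (Atp5c1) and 0.02 (Atp5b). Atp5b gave 624, 586 and 588 FPKM in controls and 565, 608 and 653 in cKO libraries. Atp5a1, the alpha subunit, had a log2 difference of -0.0014 (95% interval -0.16 to 0.16).

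The membrane ring is built from 3 genes: Atp5g1, Atp5g2 and Atp5g3 encode the same mature subunit c with different import sequences. Atp5g2, at chr15:102662864-102672352 on the minus strand (mm10), overlaps the microRNA gene Mir688. It gave 305, 295 and 297 FPKM in controls and 266, 262 and 277 in cKO libraries. Every cKO value was below every control value, and the log2 difference was -0.15 (SE 0.05, 95% interval -0.29 to -0.024; limma adjusted p = 0.225). Atp5g3 gave 425, 400 and 419 FPKM against 440, 422 and 461, a log2 difference of 0.09 (SE 0.07, adjusted p = 0.541). Atp5g1 gave 162, 143 and 163 FPKM against 157, 160 and 182, a log2 difference of 0.09 (SE 0.08, adjusted p = 0.629).

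As a share of the 3 genes, Atp5g2 took 34.2%, 35.2% and 33.7% in controls and 30.8%, 31.0% and 30.1% in cKO libraries, without overlap. Atp5g3 took 47.7% in each control and 51.0%, 49.998% and 50.1% in the cKO libraries. Shares of a sum move against each other by construction. Over 24 alternatives the adjusted p of Atp5g2 ran from 0.0925 to 0.469, and its log2 difference stayed negative in all of them.

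**Figure D3:**
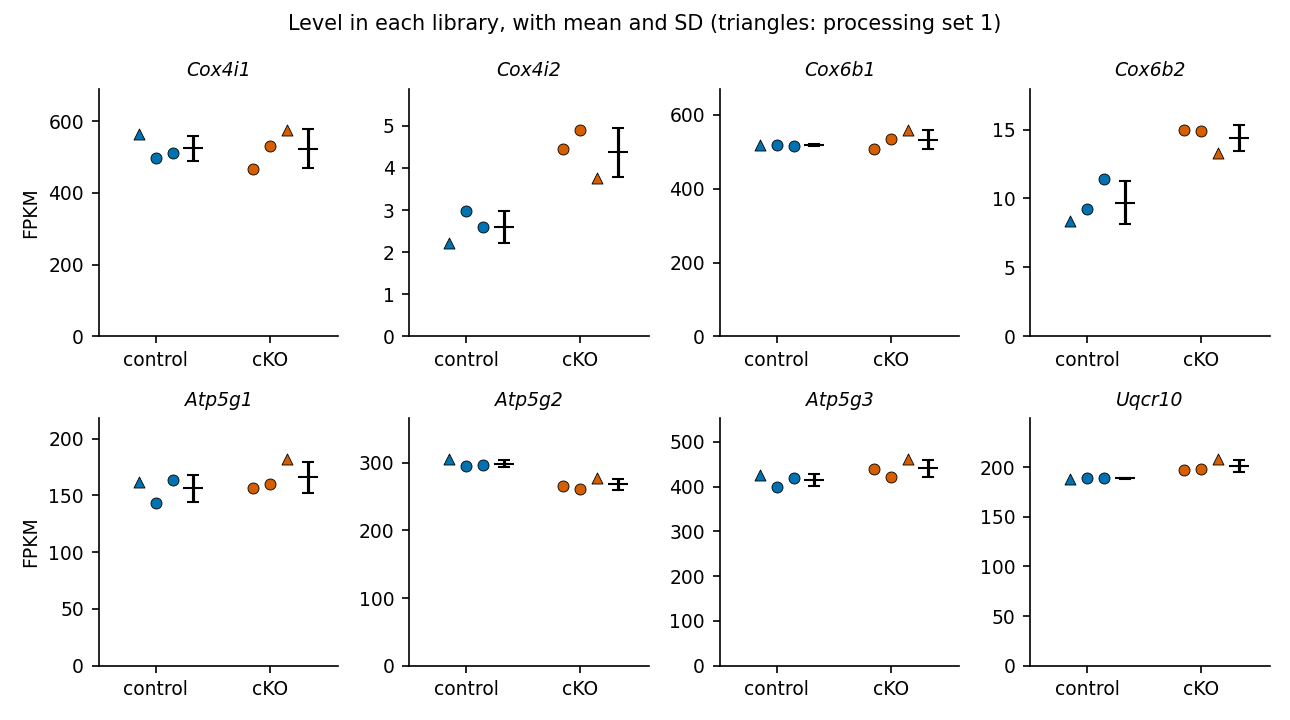
FPKM in each library, with the mean and SD of each group (n = 3), for isoform genes and Uqcr10; triangles are the libraries of set 1 and circles those of set 2. Cox4i2 and Cox6b2 are higher in all cKO libraries, Atp5g2 is lower, and Cox4i1 and Cox6b1 overlap between the groups.

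The 3 X-linked genes, Ndufa1, Ndufb11 and Cox7b, were read with the sex difference in view. Their log2 differences were 0.07 (SE 0.05), -0.03 (SE 0.07) and -0.10 (SE 0.11), with overlapping groups in each.

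Most of these genes had higher values in set 1 than in set 2. The mean of set 1 minus that of set 2, on the log2 scale, had a median of 0.093 over the 80 genes and was positive for 64 of them (80.0%), against a median of 0.0054 and 52.0% positive over all loci. None of the 80 passed limma's test for the set, against 0.0147% of all loci. The largest set differences were 0.42 for Ndufb6 and 0.40 for Ndufa3. Ndufa3 gave 278, 197 and 205 FPKM in controls and 213, 222 and 274 in cKO libraries, high in control 1 and cKO 3.

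The same order was seen in the summed FPKM of all 84 genes. It made up 2.87%, 2.67% and 2.76% of the library in controls 1 to 3 and 2.77%, 2.77% and 2.98% in cKO 1 to 3. Control 1 and cKO 3 were the highest of their groups. Because each group has 1 library of set 1, the set does not separate the groups. With set 2 alone the median log2 difference was -0.00889, and with the first deposit alone (controls 1 and 2, cKO 1 and 2) it was -0.049.

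Transcripts of these genes are short, with a median length of 744 nt against 2681 for all tested loci. Other loci of 500 to 800 nt had a median set difference of 0.026, and the 33 genes of that length here 0.122. In the class of 800 to 1500 nt the medians were 0.039 and 0.114. They were 0.032 and 0.061 under 500 nt, and 0.016 and 0.075 at 1500 to 3000 nt. What the sets reflect was not tested.

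**Figure D4:**
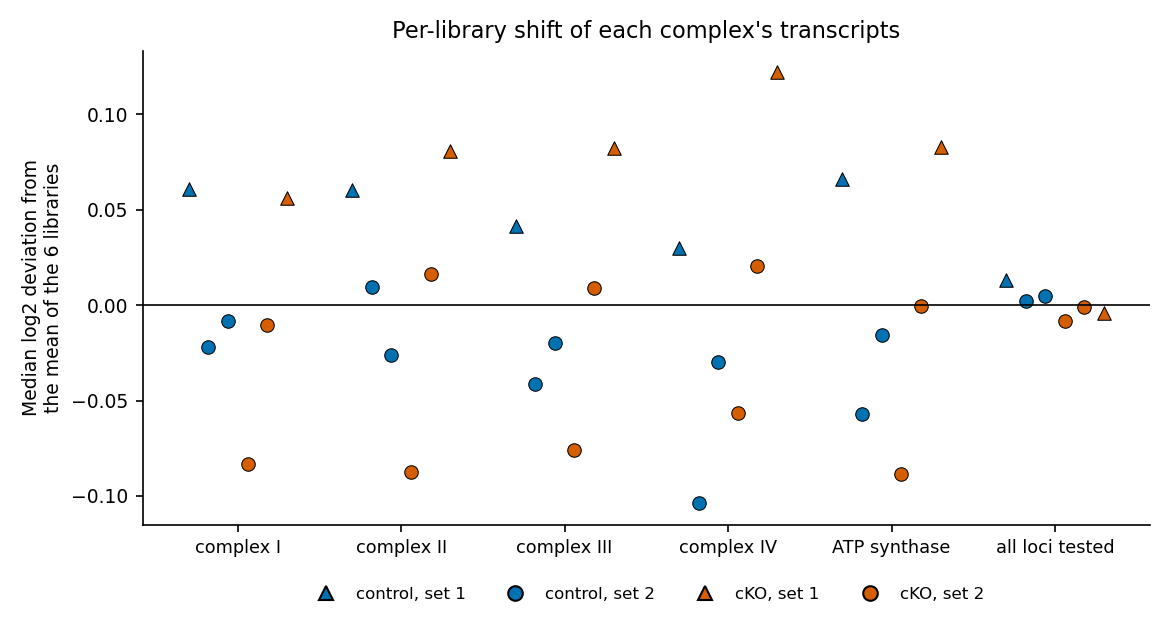
Median over genes of each library's log2 deviation from the gene's mean over the 6 libraries, by complex and for all tested loci; blue is control, orange cKO, triangles set 1 and circles set 2. Control 1 and cKO 3 lie above 0 in all 5 complexes, and all loci stay close to 0.

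Genes that serve the complexes were read from 10 lists, of which 94 loci were tested. None passed limma's test, also without the small-RNA loci, and 5 had a p under 0.05 before adjustment. Of all loci 0.573% were called, 2.46% without the small-RNA loci, and 17.6% had a p under 0.05. The assembly factors had median log2 differences of -0.015 for complex I (5 of 15 positive), -0.084 for complex II (0 of 4), 0.00084 for complex III (3 of 5), 0.0056 for complex IV (11 of 22) and -0.025 for the ATP synthase (1 of 4). Slirp, which with Lrpprc stabilises mitochondrial mRNA, gave 91.8, 84.4 and 79.4 FPKM in controls and 73.0, 72.5 and 80.3 in cKO libraries (adjusted p = 0.270). The TCA cycle enzymes had a median of -0.0031, with 6 of 13 positive. Carriers and porins had a median of 0.029 (8 of 10 positive), and subunits with other names 0.017 (4 of 5). The 13 subunits encoded in mitochondrial DNA were not analysed here.

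Regulators of mitochondrial genes had a median log2 difference of -0.055, with 3 of 16 positive, and 5 of the 16 did not overlap between groups, against 23.9% of all loci. Ppargc1a, the coactivator PGC-1alpha that drives mitochondrial biogenesis, gave 9.88, 9.32 and 9.49 FPKM in controls and 13.0, 11.1 and 10.8 in cKO libraries (log2 difference 0.25, adjusted p = 0.184). It was the higher one of the 5. Pprc1, a related coactivator, averaged 8.95 and 7.61 FPKM (adjusted p = 0.182), and Nrf1 14.0 and 12.9 (adjusted p = 0.356). Gabpa, an ETS factor, averaged 14.5 and 12.9 FPKM (adjusted p = 0.285), and Tefm, a mitochondrial transcription elongation factor, 5.41 and 4.67 (adjusted p = 0.280).

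The summed levels of 8 of the 14 marker lists did not overlap between the groups. Of single loci, 23.9% of all tested did not overlap. The summed FPKM of 8 granule neuron progenitor markers was 377 to 449 in controls and 253 to 296 in cKO libraries, and that of 8 microglia markers 38.3 to 39.1 and 50.6 to 54.9. It was 778 to 827 and 846 to 902 for 7 Purkinje cell markers. For 7 oligodendrocyte lineage markers the sum was 142 to 174 and 223 to 244, with 2 markers higher and 4 lower without overlap. For 9 markers of Bergmann glia and astrocytes the sum was 2135 to 2188 and 1982 to 2119. Most of it was Fabp7, at 1577 and 1581 FPKM on average. Of these 9, Gdf10, Slc1a3, Aqp4 and S100b were lower and Aldoc higher without overlap. Gdf10 averaged 115 and 54.7 FPKM, Slc1a3 269 and 160, and Aldoc 119 and 190. For 5 interneuron markers the sum was 148 to 169 and 171 to 179. Of these, 4 had a positive log2 difference, while Pax2 averaged 18.6 and 16.7 FPKM, with overlap. In the other lists of brain cells and blood the ranges overlapped. Granule neuron markers gave 460 to 514 and 441 to 483, meningeal ones 7.05 to 27.1 and 16.3 to 61.2, choroid plexus ones 2.84 to 8.13 and 3.25 to 14.4, and erythroid ones 6.55 to 26.0 and 12.2 to 13.8. Their part in the results was not tested.

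Other markers stand beside the isoform genes. For Cox4i2, 7 endothelium and pericyte markers summed to 73.2 to 83.1 FPKM in controls and 79.0 to 87.2 in cKO libraries. Of the 7, 0 were called, against 0.573% of all loci. Of the pericyte markers, Pdgfrb averaged 6.09 and 6.96, with overlap, and Rgs5 14.6 and 13.1, lower without overlap. Over all loci, 23.9% did not overlap in either direction. For Cox6b2, 6 germ cell markers summed to 0.699 to 1.66 and 56.7 to 230.0 FPKM, nearly all of it Prm1, which averaged 0.954 and 127, while Prm2 and Pgk2 were listed at 0 in every library and Ldhc averaged 0.111 and 0.0791. For Cox7a1 and Cox6a2, 7 muscle markers summed to 4.70 to 5.88 and 4.13 to 5.16 FPKM. Brown fat markers summed to 6.24 to 7.14 and 7.91 to 9.14 FPKM, mostly Cidea, with Ucp1 at 0.311 and 0.359. Apart from these levels, their part in the isoform differences was not tested.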

How the data were processed

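RNA of 6 cerebellum libraries was analysed. Trizol extraction and an Illumina TruSeq RNA kit are given per the labels' protocols, and CASAVA, TopHat, Cufflinks and build mm10 per the submitters' processing notes. The deposited values were read as FPKM per locus; no label names the unit, which was inferred from Cufflinks and the values. For tool versions, annotation and strand, nothing is given in the sources used here. Libraries are numbered by title, although the description of cKO 1 has another number.

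Loci that reached 1 FPKM in 3 or more of the 6 libraries were fitted as log2(FPKM + 1) with limma 3.58.1 (R 4.3.3), with a trend, and p-values were Benjamini-Hochberg adjusted over all 13612 loci (threshold 0.05). Intervals are 95% from the moderated fit. Tested on simulated data of 13612 loci, the fit called 62 of 100 loci changed by 0.5 and 91 of 100 changed by 1 (log2), with 4.97% of its calls false. The changed loci were drawn only above a minimum mean level, so these counts do not cover the lowest genes. The simulated noise was independent between loci and libraries and held no difference of sex, deposit or set. A pair of libraries was joined in a set where over 15% of the ratios of values under 0.1 FPKM fell in 1 window of 0.06 (log2). Positions are from GENCODE M21, promoters from RefSeq (GRCm38.p6). Symbols matched the annotation directly in 22894 cases and by synonym in 947; 395 did not match.

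Genes named are the 4 with the smallest p and the 3 highest in each complex, core, c-ring, isoform, X-linked and untested genes, and up to 3 of each pathway list with the smallest p; others (the largest set differences, groups that did not overlap and markers) were named after their values were seen. The genes and lists were chosen with earlier results of these data known. Alternatives covered pseudocount, filter, scaling, weights, variance, covariates and left-out libraries. A result on 1 of the 84 genes is not reported here.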

Additional observations from a re-analysis of the deposited data

How the results depend on the processing

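Over 24 alternatives the median log2 difference of the oxidative phosphorylation genes stayed between -0.049 and 0.042, and 53 of the 80 genes changed sign in at least 1 alternative. No gene of the 80 was called except Cox4i2 and Cox6b2, the 2 called with robust variance, with the small-RNA loci left out, with those left out and the processing set as a covariate (an alternative chosen after seeing the data), and at an adjusted p of at most 0.1. The number of loci called over the whole table moved from 78 to 336 with robust variance, 329 without small-RNA loci, 524 with the set covariate as well, and 409 at the threshold of 0.1. It fell to 15 with the replicate block, which called 0 of the 80 genes, to 22 with the deposit as a covariate, 30 in set 2 alone, 28 without a filter, and 30 for loci averaging 5 FPKM or more. Libraries of the same number in both groups did not deviate together (correlations -0.0268, 0.0373 and 0.0488), so the numbers were not taken as a pairing. Leaving out 1 library at a time gave 21 to 55 calls. The cause was not tested, beyond the smaller number of libraries in some of these fits. The median of complex III ran from -0.048 (without cKO 3) to 0.040 when 1 library was left out. With the shorter E-box CACCTN, chosen after seeing the data, the share of promoters was 52.0%, against 51.9% of all. Absolute read depth is unknown, so counting error could not be separated from the spread between libraries. Counting error limits the low isoform genes most.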
